A study of Mus musculus with 2 samples.

Results

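The 35 genes described here are cell division genes, chosen by their symbols among the 27998 genes of the count tables, and they were followed through the cell types of mouse visceral adipose tissue (VAT). Of the 35, 8 were taken as an S-phase set (Mcm2 to Mcm7, Rrm2 and Pcna), 21 as a G2/M set, and 6 were in neither set (Stmn1, Tyms, Tk1, Rrm1, Ccne1 and Ccne2). All 35 were detected in both libraries.

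The study compared CD45+ leukocytes of obese mice with those of obese mice put on caloric restriction (CR), by droplet single-cell RNA sequencing with unique molecular identifiers (UMIs, tags that let each captured transcript be counted once). Male C57BL/6J mice arrived at 6 weeks of age and, after 2 weeks of housing, ate a high-fat diet (60% kcal fat, 0.3% cholesterol) for 24 weeks while an antisense oligonucleotide to the LDL receptor was injected weekly at 5 mg/kg. CR mice were then given 70% of the freely eaten amount of the same diet for 2 weeks, so that diet and oligonucleotide were shared by both groups (the deposited sample label instead names restriction over the whole life). Each group was 1 library of perigonadal VAT, sorted for live CD45+ cells. The number of mice behind each library is not given in the sources used here.

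With 1 library per group there is no replicate check and no test. All intervals are 95% exact intervals and cover counting error only, so a difference between obese and CR compares these libraries and not the conditions. The transcripts of a dividing cell also come together in that cell, which makes intervals on summed UMIs narrower than the spread between cells.

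A cell that divides first copies its DNA in S phase and then, after the G2 gap, parts the chromosomes in mitosis (M). The Mcm proteins form the helicase that is loaded on DNA before copying and unwinds it, Pcna is the clamp that holds the polymerase, and Rrm1, Rrm2, Tyms and Tk1 supply deoxynucleotides. Cyclins with their kinases drive entry into mitosis, and their removal by the anaphase ubiquitin system ends it. Macrophages of adipose tissue are known to renew partly by dividing in place.

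After filters, 5263 of 5795 barcodes of the obese library and 2987 of 3562 of the CR library were kept, with medians of 6738 and 4802 UMIs per cell, and 28 barcode sequences occurred in both libraries. Cells were assigned to 19 gates by marker genes with no cell division gene among them, which placed 87.6% of obese and 83.0% of CR cells. In every gate at least 5 of its own markers were raised. The gates of erythroid cells, fibroblasts and endothelial cells also held cells, and how these came through the CD45 sort was not tested. Ptprc, which encodes CD45, was found in 19.3% and 15.5% of the fibroblasts. Because the libraries differed in depth, every cell was thinned to 1500 UMIs, and a cell was counted as having a set when at least 2 UMIs of that set remained.

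The promoters of both sets are shown first because they differ in the letters they hold. RefSeq promoter windows of 300 bases (250 before to 50 after the annotated start, GRCm38.p6) were matched for 28 of the 35 members. The letters TTTGAA, the core of the cell cycle homology region found in late cell cycle promoters, were present on either strand in 12 of 17 G2/M members with a window, in 1 of 7 S members, and in 20.2% of 27025 genes. The E2F-type letters (TTTGGCGC, TTTGGCGG, TTTCCCGC or TTTCGCGC, either strand, where TTTCGCGC and TTTGGCGC overlap) were present in 4 of 7 S members, in 1 of 17 G2/M members and in 2.70% of all genes. CCAAT was present in 15 of 17 G2/M members and 7 of 7 S members, against 41.1% of all genes. These are matches of letters and were not tested as binding sites. A pair of promoters from each set shows the layout, 160 bases ending at the base before the start, 5′ to 3′ on the strand of the gene, with the matched letters of all motifs on either strand in capitals. The S members Mcm5 (chr8:75109349-75109508, plus strand) and Mcm6 (chr1:128359706-128359865, minus strand) carry E2F-type letters, and the G2/M members Cdc20 (chr4:118437344-118437503, minus strand) and Kif11 (chr19:37376222-37376381, plus strand) carry TTTGAA close to the start.
Mcm5: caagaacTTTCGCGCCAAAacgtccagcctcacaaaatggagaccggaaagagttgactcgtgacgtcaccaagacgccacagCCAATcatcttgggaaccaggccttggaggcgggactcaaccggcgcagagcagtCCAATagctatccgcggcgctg
Mcm6: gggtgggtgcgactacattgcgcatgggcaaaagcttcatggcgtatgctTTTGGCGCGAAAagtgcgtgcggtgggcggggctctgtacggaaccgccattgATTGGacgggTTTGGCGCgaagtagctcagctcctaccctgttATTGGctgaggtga
Cdc20: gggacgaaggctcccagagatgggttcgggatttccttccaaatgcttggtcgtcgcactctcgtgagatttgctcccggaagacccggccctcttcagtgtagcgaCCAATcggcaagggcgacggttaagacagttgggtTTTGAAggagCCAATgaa
Kif11: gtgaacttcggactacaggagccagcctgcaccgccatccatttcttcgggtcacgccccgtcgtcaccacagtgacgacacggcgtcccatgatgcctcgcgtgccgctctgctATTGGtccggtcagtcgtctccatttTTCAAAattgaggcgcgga

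Over all kept cells, levels of each member were read as CPM (UMIs of the gene per 1000000 UMIs summed over the cells), the obese value first. Among the helicase genes, Mcm6 was at 46.5 and 51.0, Mcm3 at 39.6 and 44.0, Mcm5 at 30.8 and 32.0, Mcm7 at 26.6 and 32.9, Mcm2 at 20.2 and 20.1 and Mcm4 at 17.0 and 23.7. Pcna was at 91.7 and 110.2. In nucleotide supply, Tk1 was at 39.6 and 40.3, Tyms at 27.5 and 24.9, Rrm1 at 26.7 and 27.4 and Rrm2 at 25.9 and 25.3. The S members apart from Mcm2 and Rrm2 were thus higher in the CR library. Of the E and A cyclins, Ccna2 was at 19.2 and 12.0, Ccne1 at 4.84 and 5.06 and Ccne2 at 2.33 and 2.73. Of the mitotic kinases and cyclins, Ccnb2 was at 42.1 and 25.8, Cdk1 at 30.5 and 21.8, Ccnb1 at 16.8 and 12.4, Aurkb at 13.1 and 11.4, Bub1b at 9.67 and 7.33, Aurka at 7.66 and 6.19, Plk1 at 7.37 and 6.70 and Bub1 at 4.12 and 3.69. In the anaphase system, Ube2c was at 60.6 and 32.5 and Cdc20 at 18.9 and 14.0. All of these mitotic genes were lower in the CR library. At the centromere, Birc5 was at 75.9 and 47.5, Cenpa at 71.9 and 50.9, Cenpf at 16.8 and 11.1 and Cenpe at 11.3 and 9.83. On the spindle, Nusap1 was at 21.5 and 17.6, Tpx2 at 15.8 and 11.8, Kif20a at 7.86 and 5.96 and Kif11 at 6.80 and 5.74. Top2a (43.5 and 42.4) and Mki67 (23.3 and 22.7) differed least among the 21 G2/M genes. The libraries also differ in their mix of cells, with fibroblasts and endothelial cells at 2.07% and 0.456% of kept obese and 10.4% and 7.37% of kept CR cells, so levels were next read within gates.

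Cells with G2/M genes were found in nearly every leukocyte gate and, among gates with at least 50 cells in each library, their share was highest in dendritic cells (DCs) of type 1 and type 2. Of the smaller gates, plasma cells had the set in 4 of 46 obese and 3 of 15 CR cells. In type 1 DCs, which carry Xcr1 and Clec9a, the G2/M set was found in 50 of 375 obese cells (13.3%, interval 10.1 to 17.2) and in 21 of 133 CR cells (15.8%, 10.0 to 23.1). In type 2 DCs, marked by Cd209a, it was found in 35 of 314 obese cells (11.1%, 7.89 to 15.2) and in 17 of 112 CR cells (15.2%, 9.10 to 23.2). In all macrophages together it was found in 156 of 2244 obese cells (6.95%, 5.93 to 8.08), an interval below that of type 1 DCs. The obese intervals of lipid-associated macrophages and of T cells, given below, overlapped those of type 1 and type 2 DCs. Migratory DCs, which carry Ccr7, had the set in 2 of 89 obese and 1 of 62 CR cells.

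Among macrophages, the lipid-associated cells (Gpnmb, Trem2) had the highest G2/M share of the obese library, 9.16% (7.03 to 11.7) of 633 cells. The share was 6.61% (5.24 to 8.22) in C1q macrophages, 5.34% (2.95 to 8.80) in resident macrophages (Lyve1, Folr2) and 4.19% (1.93 to 7.80) in Fcgr4-high macrophages. The intervals of neighbours in this order overlapped. T cells had the G2/M set in 8.13% (6.04 to 10.7) of 578 obese cells, and T cells with and without Cd8 transcripts had it in 28 of 311 and 19 of 267 obese cells, with overlapping intervals. As a background, fibroblasts had it in 0.917% (0.0232 to 5.01) of 109 obese cells and 0.645% (0.0782 to 2.31) of 310 CR cells. Their median depth of 5806 UMIs in the obese library was close to that of obese macrophages (7381 UMIs).

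**Figure D1:**
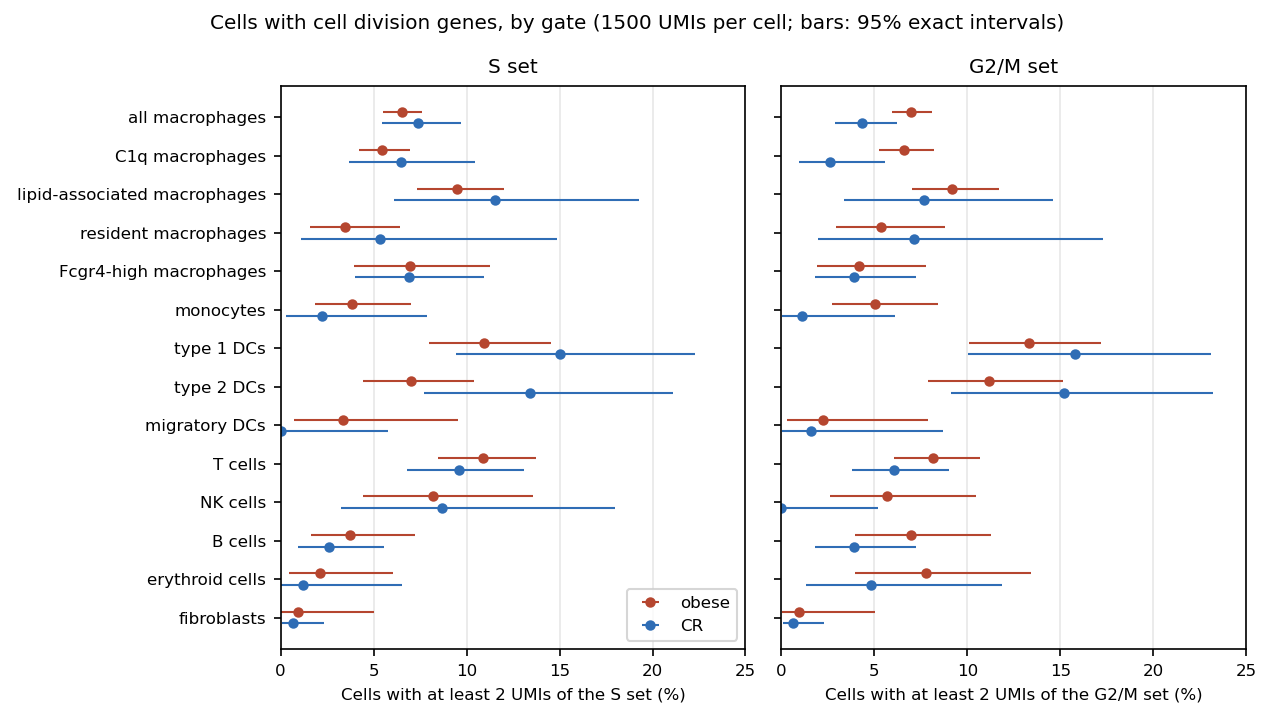
Share of cells with at least 2 UMIs of the S set (left) and of the G2/M set (right), in percent, by gate, after thinning to 1500 UMIs per cell; points are the obese (red) and CR (blue) libraries and bars are 95% exact binomial intervals. Type 1 and type 2 DCs sit highest for the G2/M set (11.1% to 15.8%) and fibroblasts are at 0.917% and 0.645%.

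Most cells called for the G2/M set carried many transcripts of that set, and some CR cells carried few. No such values are given here for the S set, a call that 2 UMIs of Pcna alone can meet. Before thinning, leukocytes with the G2/M set held a median of 34 UMIs from 12 of the 21 genes in the obese library, and 25.5 UMIs from 11 genes in the CR library. Leukocytes without the set held a median of 0. Of all G2/M UMIs, 80.3% in the obese and 79.5% in the CR library lay in the called cells. The lower quartile of called CR cells was 3 UMIs. With gates drawn before the limits on cells, the median of called cells within the limits was 3 in CR T cells and 2 in CR B cells, so that many calls there rest on few UMIs.

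The S and G2/M sets met in the same cells more often than unrelated calls would. Of 770 leukocytes with either set, 333 had the S set alone (43.2%, 39.7 to 46.8), 121 had both (15.7%, 13.2 to 18.5) and 316 had the G2/M set alone (41.0%, 37.5 to 44.6). Both sets met 3.76 times as often as the product of their shares, and 1.88 times in type 1 DCs. In C1q macrophages the ratio was 4.60 and in T cells 3.90. To see where each member belongs, cells were next grouped by the other members and the gene itself was left out of the call.

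Genes of chromosome structure came up first. Top2a, the topoisomerase that untangles copied DNA, was found in 1.46% of cells with neither set, 8.05% with the S set alone, 56.6% with both and 24.4% with G2/M alone. Mki67, which coats mitotic chromosomes, was at 0.593%, 0.893%, 27.1% and 18.4% in the same order. Of the 2, Top2a was therefore raised in cells with the S set alone and Mki67 was close to cells with neither set.

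Mitotic kinases and cyclins differed in whether they were found more often with both sets or with G2/M alone, though the intervals of these shares overlapped for each of them. Cdk1, the kinase that drives mitosis, was found in 4.42% of S-alone cells and peaked at 29.6% in cells with both sets. Plk1, a kinase of mitotic entry and exit, was found in 0 of 333 S-alone cells, which allows a share of up to 0.901%, in 11.6% of cells with both and in 7.03% of G2/M-alone cells. Ccnb1 and Ccnb2, the B cyclins that partner Cdk1, were highest in G2/M-alone cells at 14.7% and 35.5%, against 9.24% and 26.1% in cells with both. Ccna2, cyclin A, was at 22.7% in cells with both and 15.3% in G2/M-alone cells. Aurka (10.8%), Aurkb (16.8%), Bub1 (8.26%) and Bub1b (10.7%), kinases of the spindle and its checkpoint, were highest in cells with both sets.

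Genes of the anaphase system and the centromere were next, of which only Cenpa had intervals apart between the same classes. Cdc20, the activator of the anaphase ligase, and Ube2c, its ubiquitin-conjugating enzyme, were found in 18.6% and 31.9% of G2/M-alone cells against 14.0% and 27.7% of cells with both. Cenpa, the histone of centromeres, stood at 47.6% (41.4 to 54.0) against 25.2% (17.7 to 34.0), Cenpf at 17.8% against 15.8% and Cenpe at 8.31% against 6.61%. Birc5 (survivin), a subunit of the chromosomal passenger complex, stood at 42.6% against 53.6%. In all, 9 of the 21 G2/M members were highest in G2/M-alone cells and 12 in cells with both sets, and the intervals were apart for 2 of the 21, Cenpa and Top2a. Of the spindle genes, Tpx2 and the kinesin Kif20a were among the 9, and Kif11 and Nusap1 among the 12.

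**Figure D2:**
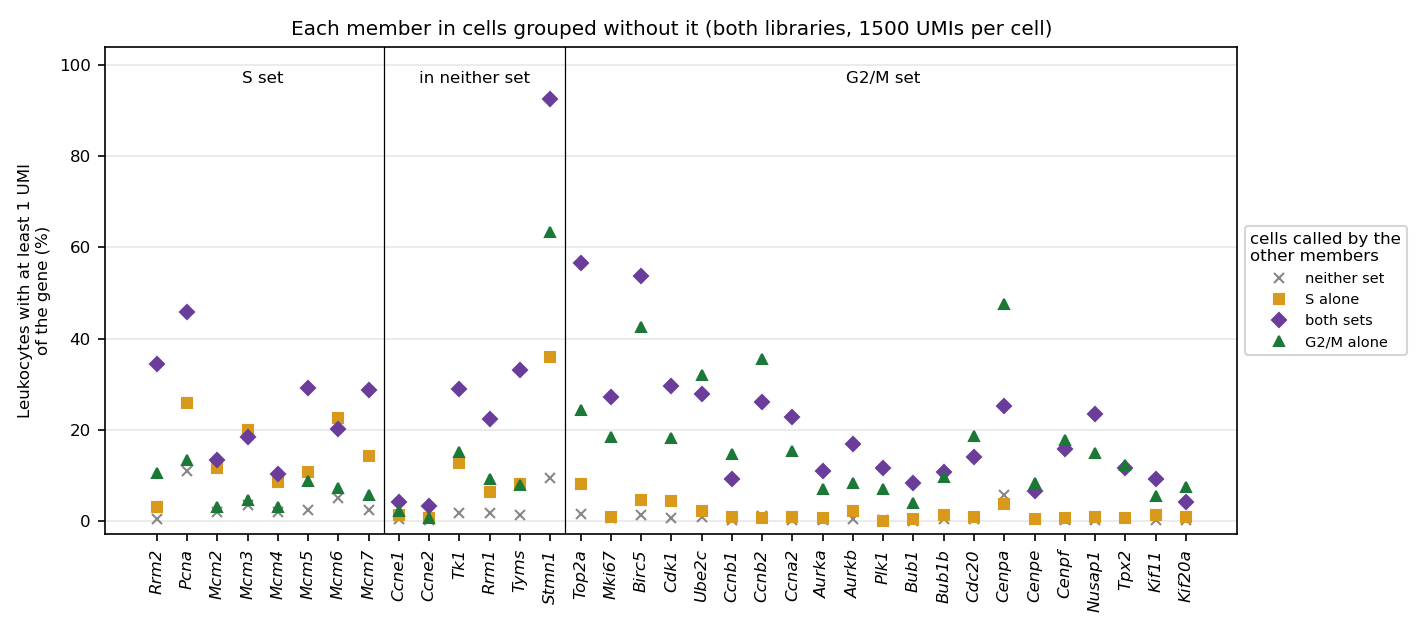
Share of leukocytes with at least 1 UMI of each member (vertical axis, percent) in cells with neither set, the S set alone, both sets or the G2/M set alone, called from the other members; both libraries together at 1500 UMIs per cell. Cenpa, Ccnb2 and Ube2c are highest in G2/M-alone cells, Top2a, Stmn1 and Rrm2 in cells with both sets, and Mcm3 and Mcm6 in S-alone cells; many of these differences lie within counting error.

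For 7 of the 8 S members, all but Mcm4, the intervals of cells with both sets and with G2/M alone were apart. Mcm6 was found in 4.97% of cells with neither set, 22.6% of S-alone cells, 20.2% of cells with both and 7.12% of G2/M-alone cells, and Mcm3 in 3.39%, 19.9%, 18.4% and 4.64%. Mcm2, Mcm4, Mcm5 and Mcm7 were highest in cells with both sets (13.3%, 10.3%, 29.1% and 28.7%). Pcna was found in 10.8% of cells with neither set, more than any other member of the 29 in the sets, and only 14.9% of its UMIs lay in cells with the G2/M set. Rrm2, the regulated subunit of ribonucleotide reductase, followed the G2/M genes more closely, with 3.07% in S-alone cells, 34.4% in cells with both, and 71.5% of its UMIs in cells with the G2/M set.

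The 6 members outside the sets were all highest in cells with both sets. Stmn1 (stathmin), which takes microtubules apart, was found in 92.6% of those cells, in 63.3% of G2/M-alone, 36.0% of S-alone and 9.31% of cells with neither set. Tyms, thymidylate synthase, reached 33.1%, Tk1, thymidine kinase, 28.9%, and Rrm1, the other reductase subunit, 22.3%. Ccne1 and Ccne2, the E cyclins of the start of S phase, reached 4.13% and 3.31% and were the members with the fewest UMIs in the obese library but for Bub1 (195, 94 and 166). Stmn1 had the most, at 12776 UMIs or 317 CPM in the obese and 216 CPM in the CR library. Levels of different genes are not compared further here, since 3′ counts of different genes are captured unequally.

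Members marked dividing cells to very different degrees. Cenpf was found in 17.2% of leukocytes with the G2/M set and 0.175% of those without, and 89.8% of its UMIs lay in the former. Bub1 had the next highest ratio, 5.05% against 0.0524%. Cenpa, by contrast, was found in 40.5% against 5.58%, with only 39.5% of its UMIs in dividing cells. All G2/M members but Cenpa exceeded a 10-fold ratio.

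A pair of G2/M genes stood out in erythroid cells. Ube2c reached 147 CPM (127 to 169) in obese and 146 CPM (117 to 179) in CR erythroid cells, against 53.0 and 33.9 CPM in all macrophages. Nusap1, which bundles spindle microtubules, reached 47.8 CPM (36.7 to 61.1) and 68.9 CPM (49.9 to 92.9), against 16.5 and 14.0 CPM in all macrophages. The other 33 members had a median of 7.58 CPM in obese and 4.81 CPM in CR erythroid cells, with Stmn1 highest in the obese library at 81.1 CPM, and Top2a was at 13.6 and 14.4 CPM.

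These 2 genes made up 55.5% of the G2/M UMIs of obese and 56.3% of CR erythroid cells, against 14.3% and 11.8% in macrophages. At full depth, Ube2c was found in 71 of 142 obese erythroid cells. With both genes left out of the set, the erythroid G2/M share fell from 7.75% to 2.82% (0.773 to 7.06) in the obese and from 4.82% to 2.41% (0.293 to 8.43) in the CR library. In macrophages the same step moved the share from 6.95% to 6.73% in the obese library and left it at 4.33% in CR. Erythroid cells are read from haemoglobin markers, and their median mitochondrial share in the obese library was 0.179%, against 2.12% in macrophages.

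Between the libraries, the G2/M share of leukocytes was lower in CR, 5.68% (4.66 to 6.84) against 7.69% (6.91 to 8.52), a ratio of 0.738 (0.587 to 0.923). The S shares had overlapping intervals, at 7.70% (6.52 to 9.01) against 7.23% (6.47 to 8.04), a ratio of 1.06 (0.867 to 1.30). Weighting the CR gates by the obese makeup, a choice made after seeing the data, gave 6.21% for G2/M and 8.38% for S. The reweighted G2/M value lay between the measured CR and obese shares, and the reweighted S value lay above both.

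By gate, the ratio of CR to obese G2/M shares was below 1 in some and above 1 in others, and differences between gates were not tested. C1q macrophages had 6 of 232 CR cells with the set (2.59%, 0.955 to 5.54) against 6.61% in obese, a ratio of 0.391 (0.139 to 0.892). All macrophages had 4.33% (2.87 to 6.23) against 6.95%, a ratio of 0.622 (0.398 to 0.941). Their makeup differed, with Fcgr4-high cells 215 of 2244 obese and 232 of 624 CR macrophages. The part of this mix in the ratio was not tested. Monocytes had 1 of 89 CR cells against 13 of 259, and natural killer (NK) cells 0 of 69, which allows a share of up to 4.35%, against 9 of 159. T cells had 6.03% (3.82 to 8.98) against 8.13%, a ratio of 0.741 (0.425 to 1.25). In type 1 and type 2 DCs the CR shares were above the obese ones, with ratios of 1.18 (0.676 to 2.01) and 1.36 (0.715 to 2.50). The intervals of the last 3 ratios and of monocytes and NK cells hold 1, so no difference was detectable there at these cell numbers.

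The macrophage ratio moved with barcodes with a high mitochondrial share. The limits took out 463 obese and 554 CR barcodes for their mitochondrial share. Of these, 14.5% (11.4 to 18.0) in obese and 11.4% (8.85 to 14.3) in CR had the G2/M set, above the 7.68% and 4.75% of kept cells. With these barcodes gated as well, 31 of 244 CR macrophage barcodes over a limit had the set (12.7%), against 26 of 615 within the limits (4.23%). Without the limits the macrophage G2/M shares were 7.44% in obese and 6.64% in CR, a ratio of 0.892, and the S-alone share of CR macrophages fell from 59.1% to 45.7%. C1q macrophages kept a ratio of 0.468 without the limits, at 6.63% and 3.10%. Macrophage barcodes over a limit had a median of 4136.5 UMIs in obese and 3266 in CR, against 7379 and 5980 within, and the part of depth or RNA quality in these shares was not tested.

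**Figure D3:**
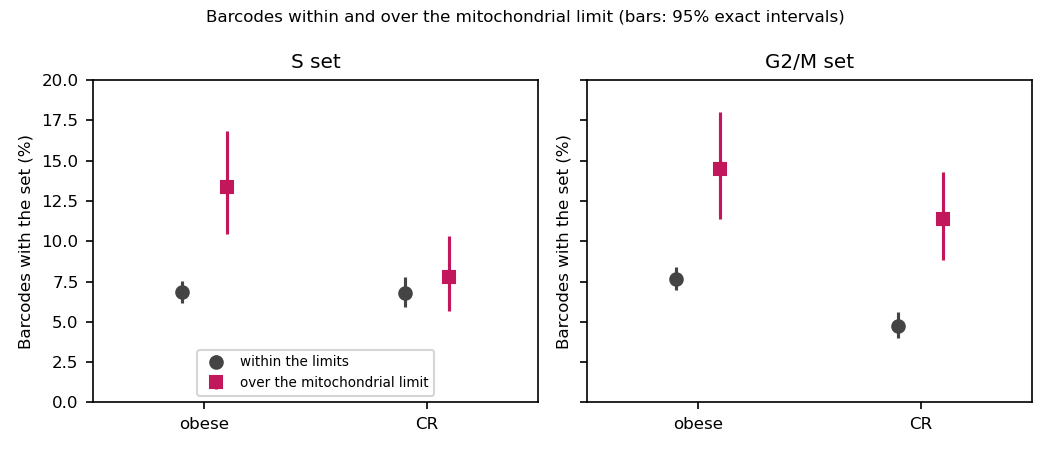
Share of barcodes with the S set (left) and the G2/M set (right), in percent, for barcodes within the limits (circles) and over the mitochondrial limit (squares) of the obese and CR libraries; bars are 95% exact intervals. For the G2/M set the squares sit at 14.5% and 11.4%, above the circles at 7.68% and 4.75%.

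Among macrophages with division genes, the share with S genes alone was higher in the CR library, with intervals that overlapped narrowly. Of macrophages with either set, 40.5% (34.5 to 46.7) had S genes alone in the obese library and 59.1% (46.3 to 71.0) in CR, and G2/M alone was at 44.3% (38.2 to 50.5) and 30.3% (19.6 to 42.9). Without the limits on cells the CR value for S alone was 45.7%, as given above. The values of S alone were 46.6% and 56.9% in T cells and 39.8% and 36.4% in type 1 DCs, also with overlapping intervals. As a share of all gated cells with G2/M genes, macrophages were 45.0% (39.6 to 50.4) in obese and 24.3% (16.7 to 33.4) in CR, beside 48.7% and 25.2% of all gated cells. Type 1 DCs were 14.4% and 18.9% of the G2/M cells, though 8.14% and 5.36% of all gated cells.

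Summed levels of single members count the same transcripts as the shares and gave the same split between the sets in C1q macrophages. Log2 values are of CR over obese CPM, with 5 CPM added to each side. All 21 G2/M members were below 0, with a median of -0.81. Of the S members 7 of 8 were above 0, with a median of 0.34. The median of all 2587 genes measured there was 0.09. Members found in the same cells, 75 obese and 6 CR cells with the G2/M set, are not separate observations, here or in the gates below. Ccnb1, Kif11 and Bub1 had 2 CR UMIs each. Birc5 was at 73.7 and 22.5 CPM (obese and CR, log2 -1.52, -1.94 to -1.11). Cenpa was at 65.8 and 27.4 CPM (log2 -1.13, -1.52 to -0.74). Pcna was at 74.2 and 117 CPM (log2 0.63, 0.40 to 0.85). A gene was measured with at least 20 UMIs over both libraries and 50 CPM in one of them. Here and in the gates below, a gene could thus pass through the library where it was high, as Birc5 and Cenpa did here. Of the 4 members measured there, 3 were lower in CR by 1.5-fold and 1 was higher. Beside them, 2.98% of all 2587 genes measured were lower and 8.31% higher. The third gene lower was Stmn1, at 290 and 162 CPM.

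In all macrophages together, which include the C1q gate, 15 of 21 G2/M members were below 0 and 6 above, with a median of -0.16. Of the S members 7 of 8 were above 0, with a median of 0.21. Of 7 members measured, 0 were past 1.5-fold either way, beside 9.46% higher and 2.6% lower of 2696 genes, and adding 1 CPM in place of 5 put 1 past it. Ube2c was at 53.0 and 33.9 CPM (log2 -0.58, -0.80 to -0.35), Stmn1 at 367 and 266 CPM (log2 -0.46, -0.55 to -0.37) and Birc5 at 79.9 and 60.5 CPM (log2 -0.37, -0.55 to -0.20). Pcna was at 107 and 147 CPM (log2 0.44, 0.31 to 0.56) and Tk1 at 48.6 and 61.4 CPM (log2 0.31, 0.12 to 0.49). The median of all genes was 0.07.

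The G2/M members of lipid-associated and resident macrophages were mostly above 0, where those of C1q macrophages were all below, and this difference between gates was not tested. In lipid-associated macrophages 20 of 21 G2/M members were above 0, with a median of 0.49 against 0.02 over all measured genes. The highest ratio was that of Cdc20, at 16.3 and 41.1 CPM. Of 8 measured members 0 were past 1.5-fold, beside 3.78% higher and 0.896% lower of all genes. Of the S members there, 3 of 8 were above 0, with a median of -0.08. The share of lipid-associated cells with the G2/M set was 7.69% in CR and 9.16% in obese, with overlapping intervals. In resident macrophages 8 of 8 S members, as against 7 of 8 in C1q macrophages, and 18 of 21 G2/M members were above 0. The median of all measured genes there was 0.11. Of 7 measured members 6 were higher in CR by 1.5-fold and 0 lower, beside 11.3% higher and 3.45% lower of all genes. Tk1 (18.5), Mcm3 (32.6) and Mcm6 (41.0 CPM in obese) passed the filter through CR alone. Those values rest on 56 CR cells, of which 4 had the G2/M set and 3 the S set. Fcgr4-high macrophages had 1 of 5 measured members higher, Pcna at 81.1 and 166 CPM, and 1 lower, Ube2c at 56.2 and 17.6 CPM, beside 9.81% higher and 8.61% lower of all genes.

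In type 1 DCs the members past 1.5-fold in CR were Rrm1, Mcm3, Mcm6, Top2a and Rrm2. All 15 measured members were above 0, with a median of 0.45 against 0.14 over all genes. By 1.5-fold, 5 were higher and 0 lower, beside 5.84% higher and 0.771% lower of 2464 genes. Rrm1 (23.6), Rrm2 (43.0), Mcm5 (46.2), Mcm7 (43.5), Cdk1 (47.0) and Tyms (44.3 CPM in obese) passed the filter through CR alone. Without the filter, 8 of 8 S members and 18 of 21 G2/M members were above 0. Below 0 were 3 G2/M members, the lowest Kif20a at -0.24, and Tk1, in neither set, at -0.04. Rrm1 was at 23.6 and 50.9 CPM (log2 0.97, 0.56 to 1.37), Mcm3 at 50.7 and 90.2 CPM (log2 0.77, 0.46 to 1.08) and Mcm6 at 64.9 and 113 CPM (log2 0.76, 0.48 to 1.04). Top2a was at 60.7 and 105 CPM (log2 0.74, 0.45 to 1.03). Ube2c (log2 0.02), Cenpa (0.08), Cdk1 (0.16), Birc5 (0.17) and Tyms (0.26) had intervals that held 0. With scaling by the median of ratios, which moved all genes by -0.17, 3 were higher by 1.5-fold. Type 2 DCs had 3 of 10 measured members higher (Pcna, Mcm3 and Mcm6) and 0 lower, beside 7.31% and 2.96% of all genes. Mcm3 (39.0) and Mcm6 (42.9 CPM in obese) passed the filter there through CR alone.

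In lymphocytes and monocytes 3 to 12 members were measured per gate, and those past 1.5-fold were lower in CR. All of those but Stmn1 in B and NK cells reached 50 CPM in the obese library alone. The median log2 of all measured genes was 0.06 in B cells, 0.03 in NK cells and 0.09 in monocytes. In T cells 17 of 21 G2/M members were below 0 and 8 of 8 S members above. Their medians were -0.31 and 0.26, against 0.05 over all genes measured in T cells. Of 12 measured, 2 were lower by 1.5-fold, Ube2c at 97.0 and 42.2 CPM and Ccnb2 at 57.6 and 26.7 CPM, and 0 were higher, beside 3.23% lower and 7.47% higher of all genes. In B cells 3 of 7 measured members were lower (Birc5, Ube2c and Stmn1, which is in neither set) and 0 higher, beside 4.84% and 8.33%, with 15 of 21 G2/M members below 0 and 5 of 8 S members above. In NK cells 2 of 4 were lower (Stmn1 and Cenpa) and 0 higher, beside 8.05% and 11.4%, with 4 of 8 S members above 0. In monocytes 2 of 3 were lower (Stmn1 and Cenpa) and 0 higher, beside 2.66% and 8.71%, with 2 of 8 S members above 0. Birc5 was at 43.6 CPM in obese monocytes, with 0 UMIs in CR. In migratory DCs 1 of 2 measured members was higher (Pcna) and 1 lower (Stmn1), beside 13.8% and 5.27% of all genes. Pcna passed the filter there through CR alone (35.2 and 70.6 CPM) and Stmn1 through obese alone (56.0 and 30.6 CPM). In erythroid cells 1 of 3 was lower (Stmn1, 81.1 and 11.2 CPM) and 0 higher, beside 65.4% and 3.3% of 819 genes, and in fibroblasts 1 of 1 was lower (Stmn1, 77.3 and 45.7 CPM) and 0 higher, beside 5.32% and 5% of all genes.

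**Figure D4:**
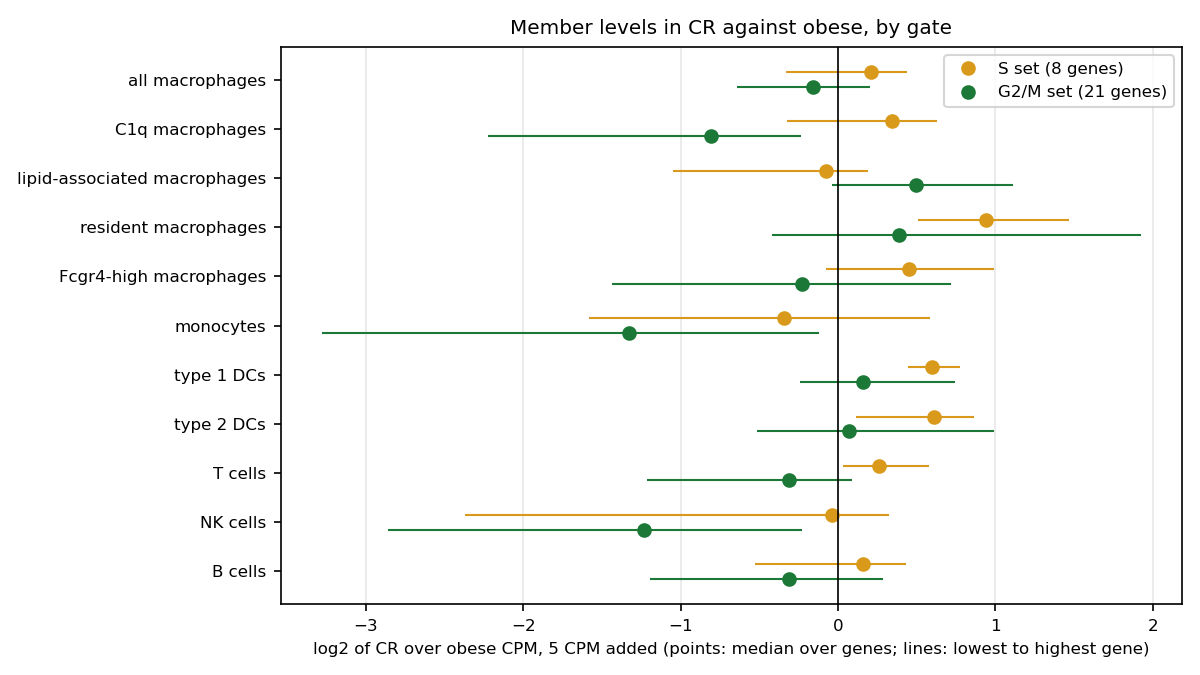
Log2 of CR over obese CPM (5 CPM added) for the 8 S and 21 G2/M members in each gate; points are medians over the genes and lines run from the lowest to the highest gene, whether or not a gene was measured well. The S median lies to the right of the G2/M median in every gate drawn but lipid-associated macrophages.

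Cells with the G2/M set held more UMIs. In obese macrophages the median before thinning was 11110.5 UMIs in 156 cells with the G2/M set and 7072.5 in 1982 cells with neither set, a ratio of 1.57, and in CR macrophages it was 10248 and 5838.5, a ratio of 1.76. The ratio was 1.34 in obese and 1.58 in CR type 1 DCs, and 1.99 in obese and 1.18 in CR T cells. The call was made after thinning, so that deeper cells had no more UMIs to be called by. The pooled macrophages mix gates of different depth, with obese medians of 11527 UMIs in lipid-associated and 7031 in C1q macrophages. Within these gates the obese ratio was 1.38 in lipid-associated and 1.53 in C1q macrophages, both below the pooled 1.57. The causes of the higher UMIs, among them gate mix and doublets, were not tested. In obese macrophages the mitochondrial share was 2.21% with the set and 2.11% without.

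**Figure D5:**
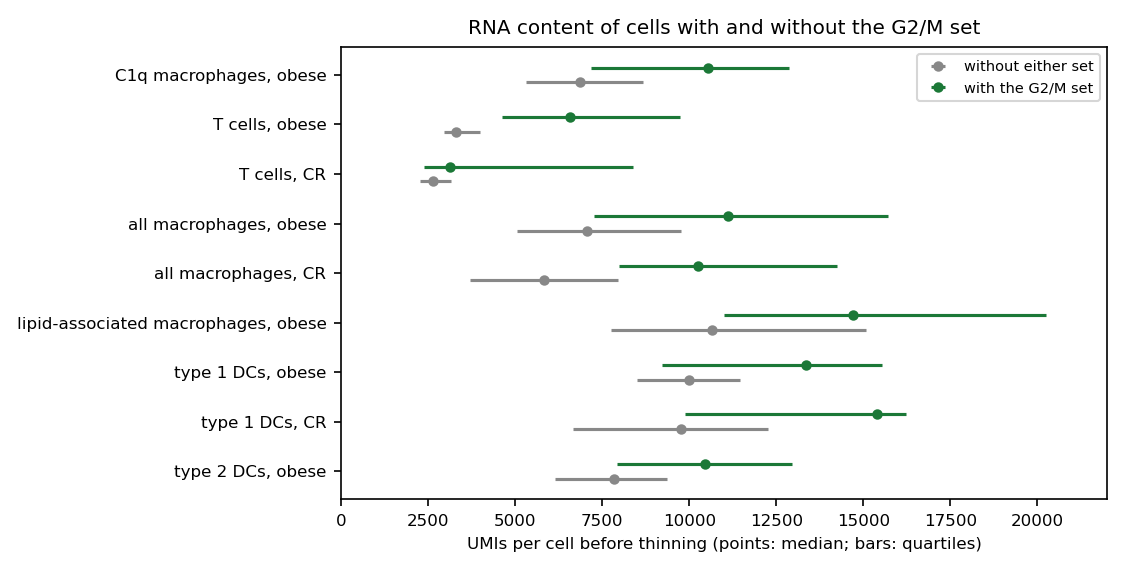
UMIs per cell before thinning (horizontal axis) in cells with the G2/M set (green) and with neither set (grey), by gate and library; points are medians and bars quartiles. The green point lies to the right in each of the gates drawn (all leukocytes pooled are not drawn), from 1.18 times in CR T cells to 1.99 times in obese T cells.

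Other genes of the pathway followed the same cells. Both libraries and all macrophage gates were pooled to compare macrophages with and without the G2/M set. From lists of 77 further genes, 43 were measured there. Of these, 34 were higher by 1.5-fold and 2 lower, beside 10.8% and 4.25% of all genes, and the median log2 was 2.09 against 0.09. All 12 measured genes of cytokinesis and the spindle were higher, with a median log2 of 3.39, led by Prc1, which bundles the midzone of the spindle, at 133 CPM against 2.01 CPM. The histone gene Hist1h2ap was at 1203 CPM against 28.3 CPM, and H2afx at 224 against 20.9 CPM. All 3 measured condensin genes and all 5 of licensing and the fork were higher, with Lig1, which joins the fragments of the lagging strand, at 102 against 20.2 CPM.

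The G1 genes and the inhibitors were mixed. Of 5 measured G1 genes, Cdk4 was higher (180 against 103 CPM) and Ccnd2, a D cyclin, lower (62.5 against 103 CPM). These values pool the libraries, in which 156 of 2244 obese and 27 of 624 CR macrophages had the set. Ccnd2 was higher in CR in C1q and Fcgr4-high macrophages, as given below. The part of library and gate mix in its lower value was not tested. Of 7 measured inhibitors, Cdkn2c, Cdkn2d and Gmnn, the brake on relicensing, were higher, with log2 values of 2.03, 1.87 and 1.86, and the antiproliferative gene Btg2 was lower at 268 against 458 CPM. Cdkn1a, which encodes p21, was at 261 against 262 CPM. Pttg1 (securin), a late gene, was at 47.1 against 53.6 CPM, the exception among 6 checkpoint genes. Of the further genes, 33 of 43 were higher and 0 lower in type 1 DCs, beside 13.3% and 1.94% of all genes. In type 2 DCs 29 of 39 were higher and 2 lower, beside 10.5% and 4.73%, and in T cells 35 of 46 were higher and 3 lower, beside 20.8% and 8.53%.

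Outside all lists, the genes most raised in macrophages with the G2/M set were Hmmr, Pbk, Cdkn3, Spc24, Lockd, Fam64a, Knstrn, Shcbp1, Cit and Neil3. Hmmr, a protein of the spindle, was at 96.8 CPM in cells with the set and 1.59 CPM in cells without, and was also raised in type 1 DCs (log2 3.72) and T cells (4.49). All 10 were also higher in type 1 DCs, type 2 DCs and T cells, where the lowest log2 value was 2.00, for Cit in T cells. The lowest were Saa3, Slpi, Plac8, Mt2 and Wfdc17, of which Plac8 was a marker used for the monocyte gate. Saa3, an acute phase gene, was at 6.60 against 202 CPM in macrophages but had a log2 value of 1.04 in type 1 DCs.

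The inhibitor Cdkn2a and the D cyclin Ccnd2 were highest among the macrophages in the Fcgr4-high gate. The G2/M share of that gate was the lowest of the obese macrophages, with overlapping intervals. In CR it was 3.88%, above the 2.59% of C1q macrophages, and the obese S share of 6.98% was above their 5.47%. A link between these 2 genes and division was not tested. Neither gene was a marker of the gate, though Cdkn2a was among its 10 leading genes. In Fcgr4-high macrophages Cdkn2a was at 136 CPM (114 to 162) in the obese and 352 CPM (319 to 388) in the CR library, and at 12.2 and 83.6 CPM in C1q macrophages. Ccnd2 was at 401 CPM (362 to 444) and 1028 CPM (972 to 1088), against 19.1 and 168 CPM in C1q macrophages. Both genes were thus higher in CR in both gates. They were also higher in CR in resident macrophages (Cdkn2a 8.42 and 73.9 CPM, Ccnd2 21.9 and 222 CPM). The same held in type 1 DCs (Cdkn2a 5.97 and 34.9 CPM, Ccnd2 58.4 and 148 CPM). Cdkn2a was lower in CR in T cells (23.3 and 14.7 CPM) and type 2 DCs (11.5 and 4.02 CPM). The Fcgr4-high gate had S genes in 6.98% (obese) and 6.90% (CR) and G2/M genes in 4.19% and 3.88% of its cells. Fcgr4-high cells were 4.66% of the gated obese and 9.35% of the gated CR cells, and the part of free RNA in the values of other gates was not tested.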

How the data were processed

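Single CD45+ cells of perigonadal VAT were profiled with the v2 Chromium 3′ chemistry, 1 library per group. The authors deposited UMI counts per gene and barcode, made with Cell Ranger 2.2 against mm10, before their own filter on cells, and Seurat is named for their later steps. The 35 members and all gene lists were chosen with earlier results of these data known.

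Barcodes with fewer than 200 genes were dropped, as were those whose mitochondrial percentage or log10 of total UMIs lay over 3 scaled MADs (median absolute deviations) above the library's median. Counts scaled to 10000 per cell were log transformed, standardised per marker (limited to -3 and 5) and averaged per marker list, and a cell took the gate of its highest score if it led by 0.1 and held 3 UMIs of 2 markers. This scoring rule was set after the data were seen. Of 126 marker genes, 2 were absent from the tables. Doublets were not removed, and an alternative left out the top 5% of doublet scores. Every cell was thinned at random (seed 1) to 1500 UMIs, which no kept cell fell below. A cell had a set with at least 2 UMIs of it. Levels are CPM of UMIs summed over a gate, and ratios have 5 CPM added. A gene counted as measured from 20 UMIs summed across the libraries, if it reached 50 CPM in either, and was called past 1.5-fold. Gates with under 50 cells in a library were not compared. Genes were named by role, and those outside the lists as the 10 highest and 5 lowest ratios with at least 50 UMIs and 50 CPM on one side. Intervals are exact binomial, Poisson or conditional (95%). A count of 0 allows up to 3 counts. Depth per library was 42948242 and 19696476 UMIs. Analyses used Python 3.11.15 with numpy 2.4.6, scipy 1.17.1, pandas 2.3.3 and scanpy 1.11.5, and were tested on simulated data. Coordinates in the text are GRCm38.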

Additional observations from a re-analysis of the deposited data

Results flagged for a closer look

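Barcodes over the mitochondrial limit, which the comparisons leave out, had division genes more often than kept cells. The G2/M set was found in 14.5% of 463 such barcodes in the obese library, against 7.68% of kept cells, and in 11.4% of 554 in the CR library, against 4.75%. The S set was found in 13.4% of them in the obese library, against 6.84%, and at 7.76% against 6.80% in the CR library, where the intervals overlap. Within the gate of all macrophages the G2/M values over a limit were 11.7% in obese and 12.7% in CR. Their median depth was 3915 UMIs in obese and 2828.5 in CR, below that of kept cells, and the median of G2/M UMIs in called macrophage barcodes was 12 and 10, against 38 and 35 within the limits. The cause was not tested.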

How the results depend on the processing

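Each condition has 1 library, so no replicate could be left out. No paired analysis was possible because each condition has 1 library and there is no test. Over 9 settings of filters, thinning, set limit, gates and doublets, the CR over obese ratio of the G2/M share stayed below 1 in leukocytes (0.587 to 0.939), all macrophages (0.576 to 0.892), C1q macrophages (0 to 0.744) and T cells (0.373 to 0.874), and was below 1 in 2 of 9 in type 1 DCs (0.877 to 1.41). The S ratio was below 1 in 1 of 9 in all macrophages (0.987 to 1.43) and in 0 of 9 in type 1 DCs (1.14 to 2.17).

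Levels moved with depth and set limit, values given as obese and CR. Thinning to 1000 UMIs gave G2/M shares of 6.42% and 3.77% in leukocytes and 5.75% (obese) in macrophages, macrophage S shares of 3.74% and 4.97%, and an obese macrophage S-alone share of 32.1%. Thinning to 3000 UMIs gave 11.6% and 10.9%, 10.5% and 8.94%, S shares of 13.2% and 19.0%, 17.4% in obese type 1 DCs, S alone at 47.7%, and 6 of the 10 companion genes. Cells below 3000 UMIs were left out there, so that this setting also changed the cells counted. The median depth was 2674 UMIs in CR T cells and 3403 UMIs in obese T cells. With 1 UMI of a set the shares were 19.0% and 17.3%, 17.8% and 14.7%, S shares 23.5% and 31.6%, type 1 DCs 24.5% and 25.6%, S alone 49.0% (obese), the UMI ratio 1.30 and 1.25, and 5 companion genes were kept. With 3 UMIs they were 5.77% and 3.71%, 5.17% (obese macrophages), S shares 2.63% and 2.88%, and S alone 28.0% and 38.9%. Without thinning they were 21.1% and 14.5%, 21.6% and 14.1%, S shares 33.4% and 36.5%, and type 1 DCs 32.8% and 31.6%. A stricter gate gave 6.77% in obese leukocytes, 5.64% in obese macrophages and a CR macrophage UMI ratio of 2.79. Without the limits on cells, CR macrophages had 6.64% and S alone 45.7%, and 0 members were higher in C1q macrophages.

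Counts of members past 1.5-fold were small and moved. In all macrophages 1 was lower with 1 CPM added, with median-of-ratios scaling, with totals lacking ribosomal, mitochondrial and haemoglobin genes, and with no filter on low counts, and 2 with the mean of per-cell CPM. In C1q macrophages 0 were higher with 20 CPM added or median-of-ratios scaling, and 17 were lower with no filter on low counts. In type 1 DCs 3 were higher with median-of-ratios scaling and 8 with no such filter. In T cells 1 was higher with 1 CPM added, 6 were lower with no such filter and 4 with per-cell CPM. Median-of-ratios scaling moved the median of all genes by -0.11 in all macrophages and -0.17 in type 1 DCs. The causes were not tested.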
